A study of Mus musculus with 6 samples.

Results

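The mouse mitochondrial genome, chromosome M of the GRCm39 build, is a circle of 16299 bases that holds 37 annotated genes. All 37 were found in the deposited table by mapping its Ensembl identifiers to GENCODE mouse release 39, out of 57132 genes in all. They are 13 mRNAs for subunits of the respiratory chain and ATP synthase, 2 rRNAs of the mitochondrial ribosome and 22 tRNAs. The cells were bone marrow-derived dendritic cells, which are grown in culture from marrow of female C57BL/6 mice of 6-8 weeks, here in medium with GM-CSF (15 ng/mL) and dialyzed serum, and RNA was taken on day 5. The 3 cultures named 0Q were grown in queuine-depleted medium, and the 3 named 100Q had queuine added at 100 nM, and the labels give no other difference between the groups. Values are listed in the order of replicates 1, 2 and 3, without queuine (0Q) first and with it (100Q) second. The labels name triplicate plating and no animals, so p-values cover the spread between cultures only, which may be technical.

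Mitochondrial DNA is copied into long transcripts from each strand. The tRNAs lie between most of the mRNAs and rRNAs, and their excision releases most of the neighbours. Most of the mRNAs are then polyadenylated, which lets them appear in poly(A)-selected libraries. Queuine is the base from which queuosine is made, a modified nucleoside in the first anticodon position of the tRNAs for Tyr, His, Asp and Asn. It is inserted in the mitochondrial as well as the cytosolic forms of these tRNAs, and they read the codons that end in U or C, written NAU and NAC here.

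The 4 mitochondrial tRNAs that can carry queuosine are shown because the treatment bears on them directly. Each is given 5′ to 3′ as its gene reads in GRCm39, with T for U and the anticodon in capitals. Its first letter, a G, is the base that queuine replaces in the RNA.

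mt-Tn (Asn, minus strand, chrM:5089-5159): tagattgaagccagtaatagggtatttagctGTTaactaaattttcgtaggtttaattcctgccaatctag
mt-Td (Asp, plus strand, chrM:6942-7011): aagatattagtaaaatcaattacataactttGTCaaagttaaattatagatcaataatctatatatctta
mt-Th (His, plus strand, chrM:11546-11612): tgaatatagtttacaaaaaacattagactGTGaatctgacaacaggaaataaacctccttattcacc
mt-Ty (Tyr, minus strand, chrM:5260-5326): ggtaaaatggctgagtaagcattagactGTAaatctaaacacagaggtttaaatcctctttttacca

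Libraries held between 3675931 and 19386617 expected counts, the largest being 100Q replicate 3, and the 37 genes took 3.77% to 4.65% of them. Macrophage and monocyte markers summed to 18440.3 to 22238 CPM (counts scaled to a common library total of 1e+06) and granulocyte markers to 14077 to 19798 CPM, with granulocyte sums of 16879 to 19798 without queuine and 14077 to 17157 with it. The 10 dendritic cell markers summed to 994 to 1166 CPM. Of these, Zbtb46 and Flt3 were low, at means of 1.17 and 1.12 CPM in 0Q, near the detection floor, and 2.46 and 3.33 CPM in 100Q. Itgax, which encodes the dendritic cell integrin CD11c, averaged 98.6 CPM without queuine and 140.2 CPM with it. Its groups did not overlap, against 8.27% of all tested genes (edgeR unadjusted p = 0.0174, adjusted p = 0.999). H2-Aa, an MHC class II chain, averaged 577 and 580.3 CPM, with overlapping groups. T and B cell markers summed to at most 5.48 and 13.2 CPM. The part of other cell types in the values below was not tested. In such bulk samples, fewer mitochondria and less RNA in each of them cannot be told apart. Nuclear rRNA was 0.244% of all counts in replicate 1 of 0Q, against 0.120% to 0.141% in the other 5 libraries.

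No mitochondrial mRNA differed between the groups beyond the error of the test. Together the mRNAs made up 2.81%, 3.17% and 2.91% of counts without queuine and 2.80%, 3.17% and 3.06% with it, or 2.96% ± 0.185 against 3.01% ± 0.192 (SD, n = 3 each). The difference of 0.0506 percentage points was smaller than either SD (two-sided exact permutation p = 0.8; with 3 libraries a side p cannot fall below 0.1). Of 11 such single values tested, the smallest p after Benjamini-Hochberg adjustment was 0.55. Among the 37 genes, 19 passed the filter on low counts, namely the 13 mRNAs, the 2 rRNAs and 4 tRNAs. By edgeR's quasi-likelihood test 0 of the 19 had an adjusted p under 0.05, and over all 10554 genes tested 0% did. At an unadjusted p under 0.05 there were 0 of 19, against 2.93% of all tested genes. Groups that did not overlap were found for 0 of the 19, against 8.27% of all tested genes. The median log2 fold change of the 13 mRNAs was 0.06, with 8 above 0 and 5 below, and that of all tested genes was 0.00 (1.94e-05). For 14 of the 19 the 95% interval of the fold change held no change larger than 1.5-fold up or down.

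**Figure D1:**
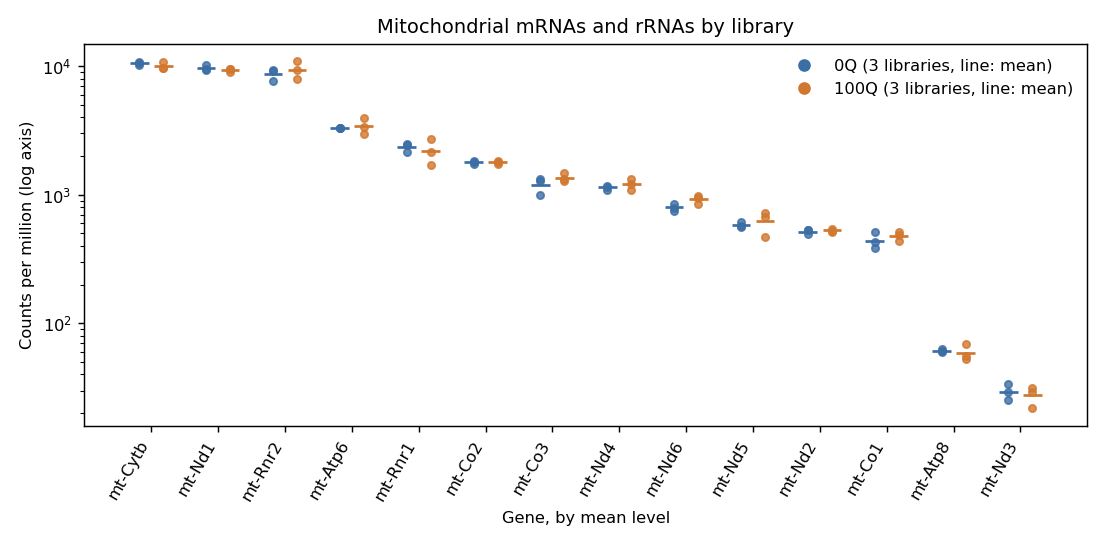
Level of each mitochondrial mRNA and rRNA in CPM (log axis) in each of the 6 libraries, with the mean of each group as a line. mt-Nd4l, listed at 0 in 3 libraries, is not drawn. The groups overlap for every gene drawn, and the group means run from 27.5 CPM for mt-Nd3 to 10510.1 CPM for mt-Cytb.

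Complex I, the NADH dehydrogenase that takes up electrons from NADH, has 7 mitochondrially encoded subunits, and they spanned the widest range. mt-Nd1 (chrM:2751-3707), a membrane subunit, had 10164, 9395 and 9532 CPM without queuine and 8933, 9446 and 9517 CPM with it. It was the 11th most abundant gene of the whole table in all 6 libraries. The groups overlapped, and the log2 fold change from edgeR was -0.06, SE 0.09 (95% interval -0.25 to 0.13 and adjusted p = 0.999). mt-Nd4 (chrM:10167-11544), a proton-pumping subunit, had 1139 ± 46.6 CPM without queuine and 1208 ± 114 CPM with it (SD, n = 3 each). mt-Nd2 (chrM:3914-4951), another pumping subunit, was the steadiest of the complex at 477 to 524 CPM per kb, and had 517.5 ± 19.8 and 528 ± 14.1 CPM. mt-Nd5 (chrM:11742-13565), the third pumping subunit, had 557, 571 and 611 CPM without queuine and 467, 667 and 724 CPM with it. Its 100Q libraries lay on both sides of the 0Q libraries, with the lowest and the highest value of all 6. mt-Nd3 (chrM:9459-9806), a small membrane subunit, had 29.4 ± 4.25 and 27.5 ± 5.00 CPM.

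mt-Nd6 (chrM:13552-14070, minus strand) is the only mRNA read from the other strand. It had 789, 853 and 749 CPM without queuine and 841, 948 and 982 CPM with it. The groups overlapped, since 100Q replicate 1 lay below 0Q replicate 2. The log2 fold change was 0.21 (SE 0.11, 95% interval -0.02 to 0.44, edgeR unadjusted p = 0.0680, adjusted p = 0.999), the smallest p among the 19. Taken as a share of the 13 mRNAs, which needs no library scaling, mt-Nd6 was 2.60%, 2.83% and 2.52% without queuine and 2.99%, 3.16% and 3.13% with it. All 3 of the 100Q values lay above the 0Q values (exact two-sided permutation p = 0.1, the smallest possible, adjusted p = 0.55 over the 11 values). The difference of 0.442 points was 0.376 to 0.531 points with any 1 library left out. The gene's 3′ end overlaps the 3′ end of mt-Nd5 by 14 bases on the opposite strand, and no source used here states whether the counting used strand. Counts from mt-Nd6 and from antisense RNA that runs on past mt-Nd5 cannot be told apart, and per kb mt-Nd6 had 4.31 to 6.33 times the level of mt-Nd5.

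mt-Cytb (chrM:14145-15288), the only mitochondrial subunit of complex III, which passes electrons to cytochrome c, had the highest mean level of the 37. It stood at 10683, 10616 and 10231 CPM without queuine and 9708, 9757 and 10866 CPM with it. In 100Q, 1 library lay above and 2 lay below all of the 0Q libraries, and the log2 fold change was -0.06 (SE 0.09). It made up 32.6% to 35.2% of mitochondrial mRNA counts in a library, with 35.0% ± 0.469 without queuine and 33.9% ± 1.15 with it (SD, n = 3 each, exact permutation p = 0.3). The difference of -1.08 points was -0.413 points without 100Q replicate 2.

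ATP synthase, complex V, has mt-Atp6 (chrM:7927-8607), part of its proton channel, and mt-Atp8 (chrM:7766-7969), a small subunit of its stalk. mt-Atp6 had 3299, 3281 and 3321 CPM without queuine, close together, and 2960.4, 3359 and 3978 CPM with it. mt-Atp8 had 60.6, 59.9 and 63.6 CPM without queuine and 52.7, 56.0 and 68.9 CPM with it, so for both genes the 100Q libraries spread around the 0Q libraries. The reading frames lie on 1 shared mRNA and overlap, as the stretch below shows (chrM:7915-7981, plus strand), in which the capitals mark the 43 bases that belong to both genes, from the start codon of mt-Atp6 to the end of mt-Atp8.

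mt-Atp8/mt-Atp6: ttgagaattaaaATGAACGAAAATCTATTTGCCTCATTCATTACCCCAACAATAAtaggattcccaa

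Although they share an mRNA, the level of mt-Atp6 per kb was 15.6 to 17.96 times that of mt-Atp8 in a library. A similar pair is mt-Nd4l (chrM:9877-10173) and mt-Nd4, both of complex I, which overlap by 7 bases (capitals, chrM:10155-10185).

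mt-Nd4l/mt-Nd4: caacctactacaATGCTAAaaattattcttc

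Complex IV, cytochrome c oxidase, which reduces oxygen, is built around mt-Co1, mt-Co2 and mt-Co3. mt-Co2 (chrM:7013-7696) had 1743, 1802 and 1820.4 CPM without queuine and 1785, 1840.3 and 1740.1 CPM with it, the narrowest interval after those of mt-Nd1 and mt-Cytb (log2 fold change -0.20 to 0.20). mt-Co3 (chrM:8607-9390) had 987, 1321 and 1288 CPM without queuine and 1321, 1468 and 1282 CPM with it. mt-Co1 (chrM:5328-6872), the catalytic core, had 384, 509.65 and 427.5 CPM without queuine and 482, 517 and 435 CPM with it. In both genes 0Q replicate 1, the library with the most nuclear rRNA, was the lowest of the 6. Relative to the mean of the libraries, its levels also showed the strongest trend with gene length. Spearman rho was -0.18, against -0.05 to 0.11 in the others. The log2 fold changes were 0.18 (SE 0.12) for mt-Co3 and 0.12 (SE 0.13) for mt-Co1, and without 0Q replicate 1 they were 0.06 and 0.03. The part of RNA quality in this was not tested.

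The level listed for mt-Co1 did not cover all reads of its sequence. A search of the annotated transcripts for nuclear copies of chromosome M, at 95% identity or more over 200 bases or more, found 12 genes. Of these, 8 lie side by side on chromosome 1 (24650616 to 24655278, minus strand) and match bases 6390 to 11042 of chromosome M. Among them Gm29216 (ENSMUSG00000101249), annotated as an unprocessed pseudogene, matches the end of mt-Co1 over 483 bases with 1 mismatch, A1066T, counted from the first base of mt-Co1. The lines below show where the match begins, with the differing base in capitals, after which 479 bases to the 3′ end of mt-Co1 are identical.

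mt-Co1 (chrM:6390-6449, plus strand): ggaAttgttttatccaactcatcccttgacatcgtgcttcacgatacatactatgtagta
Gm29216 (chr1:24655210-24655269, minus strand): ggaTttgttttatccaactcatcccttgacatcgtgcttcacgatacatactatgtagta

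Gm29216 had 3604, 4264 and 3915 CPM without queuine and 4345, 4659.7 and 3858 CPM with it, which was 8.37 to 9.38 times the counts listed for mt-Co1 in the same library. Between bases that are identical, reads from the mitochondrial and nuclear gene cannot be told apart, and RSEM divides such reads by estimate. With both entries summed, the mt-Co1 sequence had 4368 ± 393 CPM without queuine and 4766 ± 445 CPM with it (SD, n = 3 each), and mt-Co1's own entry was 9.63% to 10.7% of that sum. The share of complex IV among mitochondrial mRNA counts was 11.4% ± 0.981 without queuine and 12.2% ± 0.996 with it as listed, and 21.6% ± 1.63 and 23.2% ± 2.12 with all copies added. The difference of 0.766 points as listed was 0.202 points without 0Q replicate 1 and 1.34 points without 100Q replicate 3. The groups overlapped either way, and with the copies added mt-Co1 had a log2 fold change of 0.13 (SE 0.10, edgeR adjusted p = 0.999). The level of mt-Co1 relative to other mRNAs therefore depends on how these reads are assigned, while the interval of its change with queuine contained 0 in either case.

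The other copies took few counts. mt-Co2, mt-Co3, mt-Atp6 and mt-Nd4 each have a copy on chromosome 1 that is identical over the aligned bases, and these copies (Gm28661, Gm28437, Atp6-ps and Gm28439) were listed at 0 in all 6 libraries. In mt-Co2, mt-Atp6 and mt-Co3 99.5%, 99.5% and 99.9% of windows of 75 bases also occur in an annotated nuclear gene, whereas in mt-Nd1, mt-Nd6, mt-Atp8, mt-Cytb and both rRNAs 0% do. For mt-Nd4l the assignment switched between libraries. mt-Nd4l was listed at 0, 78.3 and 0 counts in 0Q replicates 1, 2 and 3 and at 0, 78.8 and 235 counts in 100Q. Its copy Gm10222, identical over 294 bases, had 85, 9.67 and 69 counts without queuine and 57, 25.2 and 174 with it. Together they had 16.1, 12.4 and 19.2 CPM without queuine and 10.8, 21.9 and 21.6 CPM with it, with overlapping groups. The fitted log2 fold change of 1.31 for mt-Nd4l alone (SE 2.02, 95% interval -3.92 to 6.55) is therefore uncertain, and for the sum it was 0.20 (SE 0.36).

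**Figure D2:**
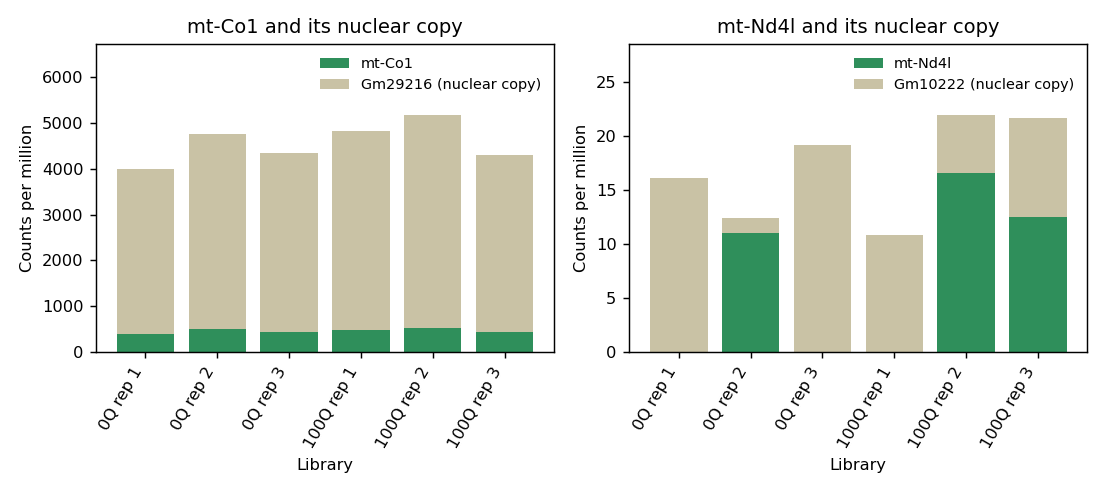
CPM in each library for mt-Co1 (left) and mt-Nd4l (right), with the counts of the nuclear copy stacked on top. mt-Co1 holds 9.63% to 10.7% of its sum in the 6 libraries, whereas mt-Nd4l is at 0 in 3 libraries and holds 57.6% to 89.0% of its sum in the other 3.

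Compared per kb of gene length, the mean levels ran from 22.5 to 9925 CPM, although all mRNAs but mt-Nd6 come from the same strand. The order by mean level over the 6 libraries was mt-Nd1 at 9925 CPM per kb, mt-Cytb at 9012, mt-Rnr2 at 5727, mt-Atp6 at 4943, mt-Co2 at 2615, mt-Rnr1 at 2372, mt-Nd6 at 1658, mt-Co3 at 1629.8, mt-Nd4 at 852, mt-Nd2 at 504, mt-Nd5 at 329, mt-Co1 at 297, mt-Atp8 at 296, mt-Nd3 at 81.7 and mt-Nd4l at 22.5. Neighbours in this order were separate in their ranges over the libraries at mt-Cytb over mt-Rnr2, mt-Atp6 over mt-Co2, mt-Co3 over mt-Nd4 over mt-Nd2 over mt-Nd5, and mt-Atp8 over mt-Nd3 over mt-Nd4l. The ranges of the other neighbours overlapped. Within a library, mt-Nd1 exceeded mt-Cytb in all 6, but mt-Nd6 exceeded mt-Co3 in only 2 and mt-Co1 exceeded mt-Atp8 in 3. With Gm29216 added, mt-Co1 would stand at 2582 to 3350.5 CPM per kb, above mt-Co2 within each of the 6 libraries, although the ranges of the 2 genes overlap (2544 to 2690.5 for mt-Co2). Lengths are those of the annotated genes, as no source used here gives the effective lengths of RSEM or the fragment sizes. A level per kb takes reads as spread evenly along a gene, which gene-level counts cannot show. On this scale mt-Atp6 and mt-Atp8, which share 1 mRNA, differed 15.6 to 17.96 times. The order therefore need not be one of RNA amounts. The parts of uneven coverage and of rRNA capture in mRNA-seq libraries were not tested.

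**Figure D3:**
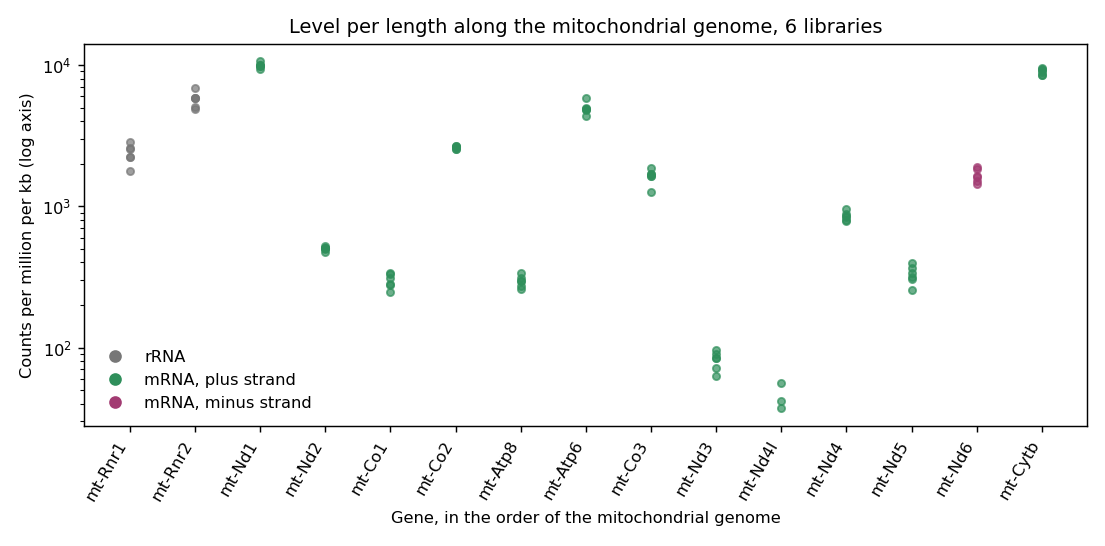
CPM per kb (log axis) of the rRNAs and mRNAs in their order along the mitochondrial genome, one point for each of the 6 libraries. Libraries listed at 0 for mt-Nd4l are not drawn. Levels change along the genome from gene to gene, as in the neighbouring mRNAs mt-Nd6 at 1658 and mt-Cytb at 9012 CPM per kb, whose ranges over the libraries do not overlap.

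The rRNAs are the structural RNAs of the small (mt-Rnr1, 12S) and large (mt-Rnr2, 16S) mitochondrial ribosomal subunits. As the libraries are mRNA-seq, counts on the rRNAs, alone or relative to mRNAs, need not be their amounts, which was not tested. mt-Rnr2 (chrM:1094-2675) had 7666, 9307 and 9237 CPM without queuine and 7940, 10907 and 9299.98 CPM with it. mt-Rnr1 (chrM:70-1024) had 2470.1, 2144 and 2423 CPM without queuine and 1711, 2711 and 2133 CPM with it. The 100Q libraries spread more widely than the 0Q libraries in both, with 100Q replicate 1 low and 100Q replicate 2 high. Log2 fold changes were 0.10 (SE 0.12) for mt-Rnr2 and -0.10 (SE 0.13) for mt-Rnr1. Together the rRNAs took 1.09% ± 0.138 of counts without queuine and 1.17% ± 0.246 with it (SD, n = 3 each, exact permutation p = 0.8). The log2 ratio of rRNA to mRNA counts was -1.44 ± 0.12 without queuine and -1.38 ± 0.21 with it (exact permutation p = 0.8). The difference between the groups, 0.06, turned negative without 0Q replicate 1 (-0.01) or without 100Q replicate 2 (-0.06).

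The 22 tRNA genes took 0.0240% to 0.0333% of counts, 881 to 4859.5 counts in a library. The libraries are mRNA-seq and these genes are 59 to 75 bases long. Counts on them need not be levels of the excised tRNAs, which was not tested. Nearly all of the tRNA counts lay on 3 genes of the minus strand. mt-Ts1 (Ser, chrM:6870-6938), mt-Te (Glu, chrM:14071-14139) and mt-Tq (Gln, chrM:3772-3842) held 95.7% to 97.6% of tRNA counts in a library. mt-Ts1 had 204, 214 and 195 CPM without queuine and 208, 246 and 196 CPM with it (log2 fold change 0.08, SE 0.14, 95% interval -0.20 to 0.37). mt-Te had 32.4 ± 5.16 and 35.3 ± 6.41 CPM, and mt-Tq 16.7 ± 2.67 and 16.8 ± 2.28 CPM (SD, n = 3 each). The groups overlapped for all 3. mt-Ts1 overlaps the last 3 bases of mt-Co1, which is on the opposite strand, and mt-Tq overlaps mt-Ti by 3 bases, also on the opposite strand. mt-Te lies between mt-Nd6, on the same strand, and mt-Cytb, on the other, and overlaps neither. Since it is not known whether strand was counted, reads of mt-Ts1, mt-Te or mt-Tq and of plus-strand RNA over the same bases cannot be told apart. mt-Ts1 had 42.0% to 53.1% as many counts as the mt-Co1 entry, and 4.30% to 5.11% as many as mt-Co1 and Gm29216 together.

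The remaining 19 tRNAs had 2 to 92 counts each over all 6 libraries, and mt-Tt (Thr) was the only one of them to pass the filter, at 1.85 ± 0.55 CPM without queuine and 2.54 ± 0.94 CPM with it. Its log2 fold change of 0.43 had a 95% interval of -1.34 to 2.195. The 4 tRNAs whose sequences are shown above had 67 counts in all. mt-Tn had 0, 1 and 3 counts without queuine and 0, 2 and 1 with it. mt-Td had 1, 9 and 1 counts without queuine and 1, 3 and 5 with it. mt-Th had 0, 1 and 2 counts without queuine and 0, 1 and 3 with it. Apart from the 9 counts of mt-Td in 0Q replicate 2, at 1.27 CPM, these levels lie at or near the floor of 3 counts. That floor equals 0.159 to 0.833 CPM depending on the library, and no difference was detectable at these counts. mt-Ty had 2, 0 and 1 counts without queuine and 10, 2 and 18 with it. Its 100Q libraries, at 1.90, 0.42 and 0.95 CPM, lay above the 0Q libraries at 0.38, 0 and 0.28 CPM, but the nearest pair rests on 2 counts each and the gene did not pass the filter for the test. As a share of tRNA counts, the 4 genes had 0.524% ± 0.292 without queuine and 0.629% ± 0.145 with it (exact permutation p = 0.8). Counts of RNA do not report whether a tRNA carries queuosine.

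**Figure D4:**
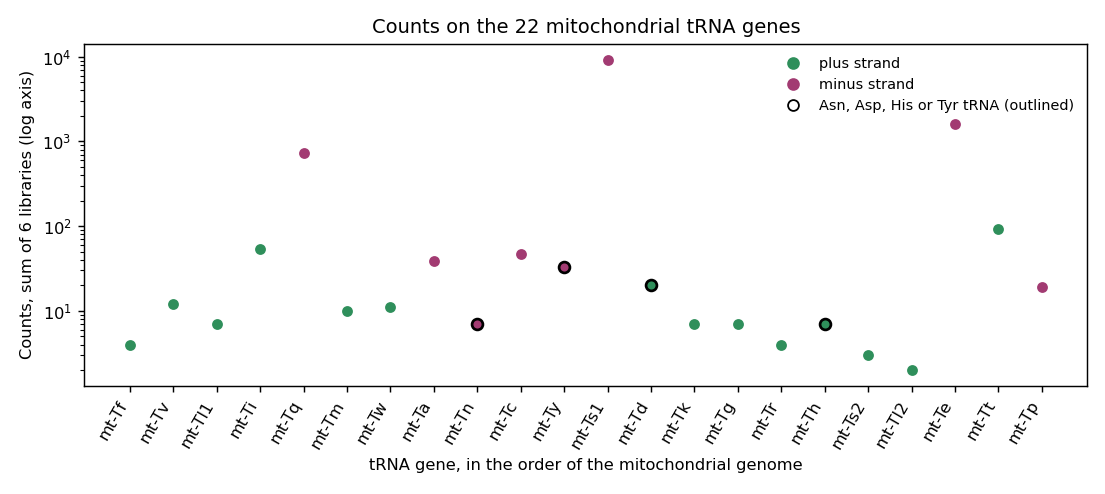
Counts summed over the 6 libraries (log axis) for each of the 22 mitochondrial tRNA genes in genome order, coloured by strand, with the 4 queuosine tRNAs outlined. mt-Ts1, mt-Te and mt-Tq, all on the minus strand, stand above every other tRNA.

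The mitochondrial reading frames hold 464 codons for Asn, Asp, His and Tyr, of which 190 end in U (40.9%). The share of NAU was 20% in mt-Nd4l (2 of 10 codons), 25.7% in mt-Nd2 and 28.2% in mt-Nd5 at the low end. At the high end it was 57.5% in mt-Co3, 95% in mt-Nd6 (19 of 20) and 100% in mt-Atp8, which has only 3 such codons. Weighted by counts per kb, the NAU share of the mitochondrial mRNAs was 36.4%, 37.1% and 36.9% without queuine and 37.3%, 37.5% and 37.3% with it. All 100Q libraries lay above the 0Q libraries, by 0.548 percentage points on average (exact two-sided permutation p = 0.1, the smallest possible, adjusted p = 0.55 over the 11 values). Without mt-Nd6 the shares were 35.3% ± 0.2999 and 35.7% ± 0.117 (SD, n = 3 each), a difference of 0.312 points. The groups were then barely separate, with 0Q replicate 2 at 35.52% and 100Q replicate 3 at 35.54%. The lowest value was 35.00% in 0Q replicate 1. With mt-Nd6 kept and the nuclear copies added, the difference was 0.614 points with groups that overlapped (exact permutation p = 0.2). Across 12 mRNAs, leaving out mt-Nd4l, a gene's NAU share and its log2 fold change were related with rho 0.23 (Spearman) and r 0.25 (Pearson), given as a description. These 12 genes share their transcripts and libraries. Without mt-Nd6 the values were 0.07 and -0.10.

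**Figure D5:**
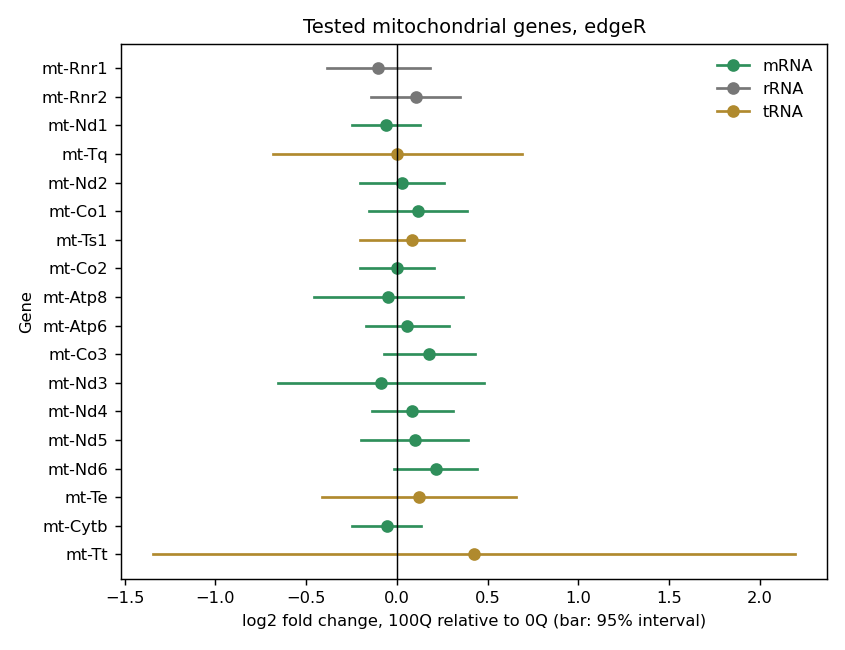
Log2 fold change of 100Q relative to 0Q with its 95% interval for 18 of the 19 tested mitochondrial genes, in genome order. mt-Nd4l, listed at 0 in 3 libraries, is left out. Every interval contains 0, and the estimate for mt-Nd6 (0.21) lies farthest from 0 among the mRNAs drawn.

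The nuclear genes that maintain and express mitochondrial DNA were read from lists by role, and 0 members passed the test in either direction, against 0% of all tested genes. Of all 10554 tested genes, 5277 had estimates above 0. For maintenance of the DNA, 4 of 9 tested members had estimates above 0, with a median log2 fold change of -0.18. Ssbp1, the single-strand binding protein, was the most abundant at 233 ± 5.96 CPM without queuine and 249 ± 15.8 CPM with it (SD, n = 3 each). Rrm2b, a subunit of ribonucleotide reductase, had 3.98 ± 1.07 and 6.86 ± 0.55 CPM, and Twnk, the helicase, 6.16 ± 4.21 and 4.03 ± 1.05 CPM. For Ssbp1 and Rrm2b, 2 of the 9, all 100Q libraries lay above the 0Q libraries, against 8.27% of all tested genes whose groups did not overlap in either direction (edgeR adjusted p = 0.999 for both). For transcription, 5 of 9 members were above 0, with a median of 0.27. Tfam, which packages the DNA and starts transcription, had 6.23, 11.4 and 6.39 CPM without queuine and 15.0, 20.4 and 10.7 CPM with it. The groups overlapped, since 100Q replicate 3 lay below 0Q replicate 2 (log2 fold change 0.91, SE 0.41, edgeR unadjusted p = 0.0406, adjusted p = 0.999). Mterf3, of the termination factor family, had 31.5 ± 10.5 and 19.7 ± 5.18 CPM.

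For RNA processing and stability, 16 of 28 tested members had estimates above 0, with a median of 0.07. Angel2 had 6.12 ± 0.65 CPM without queuine and 12.7 ± 2.99 CPM with it, and Trnt1, which adds the CCA end to tRNAs, had 58.8 ± 12.5 and 40.0 ± 6.40 CPM (SD, n = 3 each). These were the 2 members of 28 whose groups did not overlap, against 8.27% of all tested genes, and their unadjusted p were 0.0230 and 0.0261 (edgeR adjusted p = 0.999 for both). The log2 fold change of Trnt1 was -0.55, and -0.36 without 0Q replicate 1. Hsd17b10, a subunit of the nuclease that frees the 5′ ends of tRNAs, was the most abundant at 141 ± 23.4 and 141 ± 13.3 CPM. Among enzymes that modify mitochondrial tRNAs, 12 of 15 were above 0, against 5277 of all 10554 tested genes, with a median of 0.20. Nsun2, a cytosine methyltransferase, had 24.4 ± 5.23 and 38.4 ± 6.25 CPM (edgeR unadjusted p = 0.0274, adjusted p = 0.999). It was the 1 member of 15 whose groups did not overlap, against 8.27% of all tested genes. Mettl8, another methyltransferase, had 3.32 ± 1.62 and 7.03 ± 2.42 CPM. Among synthetases that charge mitochondrial tRNAs, Nars2, for Asn, had 7.08 ± 3.70 and 3.09 ± 0.57 CPM. All of its 100Q libraries lay below the 0Q libraries, against 8.27% of all tested genes whose groups did not overlap in either direction. Its log2 fold change was -1.20 (edgeR unadjusted p = 0.0543, adjusted p = 0.999), and -0.71 without 0Q replicate 1. Yars2, for Tyr, had 8.77 ± 4.26 and 5.65 ± 1.75 CPM. Of 10 tested genes of mitochondrial content and biogenesis 3 were above 0, with a median of -0.06. Among these, Hspe1, a matrix chaperonin, had 356 ± 26.8 and 343 ± 31.9 CPM, Vdac1, the outer membrane channel, 128 ± 16.0 and 117 ± 5.33 CPM, and Gabpa, a transcription factor of nuclear mitochondrial genes, 29.98 ± 5.38 and 23.8 ± 9.06 CPM.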

How the data were processed

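Gene-level expected counts of 6 mRNA-seq libraries were analysed. The authors deposited them as 1 table of expected counts, unpooled and not normalized. Per the submitters' processing notes reads went through FastQC, STAR and RSEM on mm39 (GRCm39). No source used here gives versions, annotation release, read length or strandedness. RSEM divides ambiguous reads, which affects genes with copies. Of 57132 identifiers, 502 had no match in GENCODE release 39, and 0 columns were unused. Counts were rounded and tested with edgeR 4.0.16 (R 4.3.3) over all genes passing filterByExpr, with TMM scaling, robust glmQLFit and glmQLFTest, and Benjamini-Hochberg adjustment at 0.05. CPM used the scaled totals of tested genes. Single values were compared by exact permutation over libraries. Nuclear copies came from megablast (BLAST 2.17.0) of chromosome M against GENCODE transcripts. The fit was also run on simulated data with known changes, and the rate at which it found them is not reported here. Floors cover counting error only.

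Members, lists and tests were chosen with earlier results of these data known. The rule for named genes took all 37 members (18 tRNAs by range), and of each list the 2 lowest p-values plus the member with most counts, and up to 3 nuclear copies with most counts. A gene that the rule names, and the summary of its list, are not reported here. The alternatives run included limma-voom (limma 3.58.1), DESeq2 1.42.0, other scalings and filters, removal of each library's length trend, the replicate number as a block, each library left out, nuclear copies added, and thinning of 100Q replicate 3.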

Additional observations from a re-analysis of the deposited data

How the results depend on the processing

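Leaving out mt-Nd6 and mt-Nd4l was chosen after seeing the data. Genes with adjusted p under 0.05 numbered 0 in all settings run except without 0Q replicate 1 (2) and without 0Q replicate 2 (1), so it ranged from 0 to 2, and 0 members were called in any setting. Differences between 100Q and 0Q changed sign with 1 library left out for 7 of the 11 single values. Over omitted libraries they ranged from -0.0302 to 0.157 percentage points for the mRNA share (negative without 0Q replicate 1 or 100Q replicate 2), from -0.0568 to 0.185 for the rRNA share and from -0.000194 to 0.00399 for the tRNA share (both negative without 100Q replicate 2). They ranged from -0.06 to 0.15 for the log2 rRNA to mRNA ratio (negative without 0Q replicate 1 or 100Q replicate 2; -0.0587 at the lowest), from -0.671 to 0.301 for complex I (positive without 0Q replicate 1 or 100Q replicate 3), from -0.142 to 0.964 for complex V (negative without 100Q replicate 3) and from -0.0494 to 0.240 for the queuosine tRNAs (negative without 0Q replicate 1). The complex III difference ranged from -1.46 to -0.413, complex IV from 0.202 to 1.34, the mt-Nd6 share from 0.376 to 0.531 and the NAU share from 0.368 to 0.682, with no change of sign. The cause was not tested. The exact test cannot go under 0.1, so its side of the threshold shows nothing. The median of the 13 mRNAs ranged from 0.01 to 0.10 over omitted libraries, was 0.13 with the length trend removed and 0.04 without mt-Nd4l. Fold changes of the 19 members changed sign in 13 of 114 values with a library left out and in 11 of 169 in other settings. Under a replicate block 0 genes passed, the mRNA median was 0.05, and it changed no call. Same-numbered libraries had deviations correlated at 0.03, 0.08 and -0.01, which is no evidence of pairing. The 18 tRNAs that did not pass the filter had at most 23 counts in a library, which limits what can be said of them.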
